A study of Mus musculus with 12 samples.

Results

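The comparison set the 4 cultures of the shKdm5c#1 line against the 4 cultures of the shKdm5c#2 line, 8 of the 12 arrays in the series, all chosen by their titles. The remaining 4 arrays held the control-sh line, which is given here last, as a further set of values. All 3 lines came from IB10 (E14) mouse embryonic stem cells, grown on gelatin in medium with serum and leukemia inhibitory factor (LIF). Each line was infected with a lentiviral pLKO-puro vector, coding for the first Kdm5c hairpin, for the second Kdm5c hairpin, or for a hairpin without a target, and was selected in puromycin. Per the labels each line is polyclonal, made by pooling the colonies that survived selection. The series' design text calls the 4 cultures of a line independent. There is 1 line per hairpin, so hairpin and line cannot be told apart, and the tests see only how cultures of a single line vary.

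Every array carried RNA of 1 culture and, in the other dye, RNA of untreated IB10 cells, the common reference. The culture was in Cy3 for cultures A and C and in Cy5 for cultures B and D. Values per culture below are log2 ratios of the culture over IB10, with the dye effect of the fit taken out, and a difference is shKdm5c#1 minus shKdm5c#2 on that log2 scale. A gene was called at an adjusted p under 0.05 in limma, over 18322 genes, each measured by its brightest probe. Between 84.4% and 96.4% of gene probes stood above background in the culture's channel. Culture D of shKdm5c#2 had the largest residual spread, an SD of 0.084 against 0.046 to 0.064 on the other arrays.

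Kdm5c is an X-linked demethylase that removes methyl groups from lysine 4 of histone H3, a mark of promoters and enhancers. A pair of hairpins against 1 transcript is a common control in knockdown work, because a change shared by both is less likely to come from the sequence of either hairpin or from the history of either line. Embryonic stem cells grown in serum with LIF are a mixture that drifts between a naive state, marked by factors such as Tbx3 and Klf4, and a state primed for the epiblast, marked by factors such as Fgf5 and Otx2.

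The targeted transcript was reduced in both hairpin lines, and no difference between them was called. Kdm5c stood at -0.57, -0.48, -0.75 and -0.69 in the shKdm5c#1 cultures, against -0.64, -0.67, -0.69 and -0.70 in the shKdm5c#2 cultures, and at 0.05, 0.04, 0.04 and -0.05 in the control-sh cultures. The hairpin lines overlapped, and both lay below every control-sh culture, by 0.64 for shKdm5c#1 and by 0.70 for shKdm5c#2 on average (adjusted p = 1.66e-07 and 2.98e-08). The difference was 0.06 (SE 0.0502, 95% interval -0.05 to 0.16, adjusted p = 0.546 by limma). That interval bounds the difference in knockdown. The dimmer Kdm5c probes gave 0.0043 and -0.07, with adjusted p = 0.978 and 0.406 over all probes.

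In a list of 8 histone demethylases, Kdm5c included, 2 were called higher and 2 lower. Over all genes, 10.1% were called higher and 8.51% lower. Kdm2b, which binds CpG islands as part of a Polycomb complex, was higher with shKdm5c#1 by 0.37 (SE 0.035, adjusted p = 1.07e-06). It stood at 0.38, 0.33, 0.35 and 0.42 in the shKdm5c#1 cultures, against -0.03, -0.06, 0.03 and 0.05 in the shKdm5c#2 cultures, with no overlap. A second Kdm2b probe gave 0.40, and the dimmest gave -0.06 with adjusted p = 0.413. Kdm1a, the demethylase of the NuRD and CoREST complexes, was higher by 0.18 (adjusted p = 0.037) with overlapping cultures. Kdm1b, needed for methylation of imprinted genes in the oocyte, was lower with shKdm5c#1, at -0.22 (adjusted p = 0.00293). Kdm5a, the paralog first found as a partner of the retinoblastoma protein, was also lower, at -0.17 (adjusted p = 0.0219). Its 5 other probes gave -0.05 to 0.08, none of them called, and the call was lost in 9 of 25 alternative settings. Kdm5b, Kdm2a and Kdm5d differed by 0.07, 0.05 and 0.04 and were not called.

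The lines differed in 3404 genes, 18.6% of those tested. Of these, 1844 were higher and 1560 lower with shKdm5c#1, so 54.2% of calls were higher. Most differences were small: 112 genes, 0.611% of those tested, were called at 1.5-fold or more, 86 of them higher and 26 lower. The 4 cultures of one line all lay above, or all below, the 4 of the other in 4000 genes, 21.8% of those tested (11.5% higher and 10.4% lower with shKdm5c#1). When loess was replaced by median centring, 474 genes were called, 2.59% of those tested, and 110 at 1.5-fold or more. Of the 474, 339 (71.5%) were higher and 135 lower with shKdm5c#1. The list counts with median centring given below stand beside these smaller totals.

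**Figure D1:**
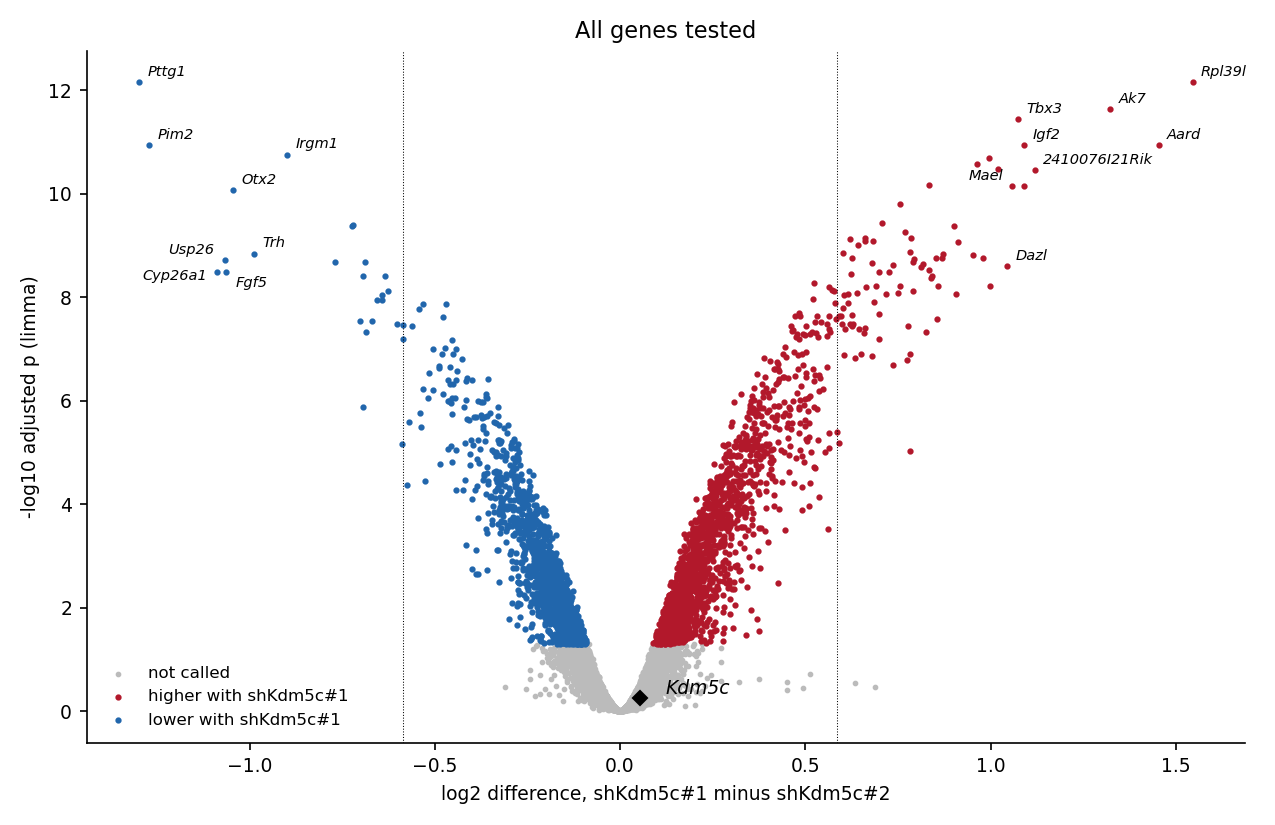
Each point is 1 of 18322 genes, by its log2 difference, shKdm5c#1 minus shKdm5c#2 (x axis), and -log10 of its adjusted p from limma (y axis). Red genes were called higher and blue genes lower with shKdm5c#1, grey genes were not called, and dotted lines mark 1.5-fold. Kdm5c (diamond, 0.06) lies near 0, while Rpl39l (1.55) and Pttg1 (-1.30) lie at the ends.

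The regulatory sequences of 3 genes that carry the differences described next are shown here. They come from RefSeq on build GRCm38.p6, cover the 250 bases before the annotated start, and run 5′ to 3′ on the gene's strand. Capitals mark a motif that was searched on both strands. These were the interferon-stimulated response element (ISRE, read as GAAA, NN and GAAA in a row), the element bound by Atf4 and its partners (CARE, TGATGNAA) and the CACGTG E-box.
In Irgm1, chr11:48871421-48871670 on the minus strand, the capitals cover overlapping ISRE matches, from -30 to -21 and from -24 to -15 relative to the start.
Irgm1: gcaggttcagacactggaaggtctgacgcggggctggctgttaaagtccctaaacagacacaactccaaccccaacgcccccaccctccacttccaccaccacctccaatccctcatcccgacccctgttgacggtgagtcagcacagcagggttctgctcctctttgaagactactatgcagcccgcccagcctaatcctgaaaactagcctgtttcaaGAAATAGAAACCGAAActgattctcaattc
In Mael, chr1:166238745-166238994 on the minus strand, they mark an E-box from -223 to -218.
Mael: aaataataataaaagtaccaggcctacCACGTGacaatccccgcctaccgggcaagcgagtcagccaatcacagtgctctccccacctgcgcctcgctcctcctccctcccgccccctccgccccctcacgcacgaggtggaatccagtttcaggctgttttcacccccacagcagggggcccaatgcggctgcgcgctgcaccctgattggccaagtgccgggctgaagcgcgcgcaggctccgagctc
In Nupr1, chr7:126625471-126625720 on the minus strand, they mark an E-box from -225 to -220 and a CARE match on the other strand from -110 to -103.
Nupr1: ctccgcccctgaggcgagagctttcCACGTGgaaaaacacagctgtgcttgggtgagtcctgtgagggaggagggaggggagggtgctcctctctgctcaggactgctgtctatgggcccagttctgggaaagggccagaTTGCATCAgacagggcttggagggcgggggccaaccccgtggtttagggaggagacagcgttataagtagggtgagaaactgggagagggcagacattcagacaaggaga

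The ISRE was present in 17 of 35 genes of the list of interferon-induced effectors that had a promoter entry, 48.6%, where 3.46% of 27025 genes held it. The E-box was present in 17 of 40 germ cell and piRNA genes, 42.5%, against 6.86% of all genes. It was also present in 3 of 12 primed epiblast markers, 25%. In the Atf4, antigen presentation and interferon lists its shares were 10.7%, 10.5% and 2.86%. The CARE was present in 9 of 28 genes of the Atf4 list, 32.1%, against 3.91% of all genes. In the antigen presentation list the ISRE was present in 3 of 19 genes, 15.8%. A further motif, E2F (GCGGGAA), was also searched, and 17.5% of the germ cell list held it, against 4.38% of all genes. These shares describe letters in a window, so they are no readout of factor binding. The interferon and Atf4 lists were also drawn from known targets.

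Interferon and antigen presentation genes were lower with shKdm5c#1. Of 45 interferon-induced effectors, 23 were called lower and 2 higher, with a median of -0.12, where the median over all genes was 0.002. Of 23 genes for MHC class I and the immunoproteasome, which cuts the peptides that MHC class I presents, 15 were called lower and 0 higher, with a median of -0.23. Irf1, the transcription factor that drives many of these genes, is in both lists. With median centring, 11 effectors and 7 antigen presentation genes were called lower.

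Irgm1, a GTPase of the immunity-related family whose promoter holds the ISRE matches printed above, stood at -0.55, -0.52, -0.51 and -0.53 in the shKdm5c#1 cultures, against 0.36, 0.37, 0.43 and 0.33 in the shKdm5c#2 cultures. In the control-sh cultures it stood at -0.84, -0.80, -0.84 and -0.80. The 3 lines did not overlap, in the order shKdm5c#2, shKdm5c#1, control-sh from high to low. The difference between the hairpin lines was -0.90 (SE 0.0319, adjusted p = 1.78e-11). Of its other probes 1 gave -0.92, and the dimmest, above background on 8 of 12 arrays, gave 0.03 with adjusted p = 0.701.

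Irf1 stood at -0.57, -0.58, -0.57 and -0.62 in the shKdm5c#1 cultures, against 0.08, 0.20, 0.15 and 0.01 in the shKdm5c#2 cultures, and at -0.91, -0.88, -0.95 and -0.90 in control-sh cultures. It had the same order of lines with no overlap, and a difference of -0.69 (SE 0.0399, adjusted p = 3.86e-09). Gbp4, a guanylate-binding protein, stood at -0.53, -0.48, -0.52 and -0.54 in the shKdm5c#1 cultures, against 0.15, 0.20, 0.25 and 0.21 in the shKdm5c#2 cultures, a difference of -0.72 (adjusted p = 4.06e-10). Gbp3 of the same family differed by -0.64 (adjusted p = 9.27e-09). None of these 3 genes had overlapping hairpin lines.

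Psmb8, a catalytic subunit that replaces its standard counterpart in the immunoproteasome, stood at -0.45, -0.38, -0.32 and -0.43 in the shKdm5c#1 cultures, against 0.27, 0.26, 0.26 and 0.44 in the shKdm5c#2 cultures. In control-sh cultures it stood at -1.24, -1.25, -1.09 and -1.21, lowest of the 3 lines. The difference between the hairpin lines was -0.70 (SE 0.048, adjusted p = 2.86e-08). Psmb10, another catalytic subunit, differed by -0.69 (adjusted p = 2.06e-09), and its control-sh cultures lay between the hairpin lines. Erap1, which trims peptides in the endoplasmic reticulum, differed by -0.63 (adjusted p = 3.83e-09), and by -0.14 on its dimmer probe. Outside the naming rule, and picked after their values were seen, the class I heavy chain H2-K1 differed by -0.54 and was called, while its partner B2m differed by -0.03 and was not. Class I heavy chains are close in sequence, so a probe of one may also read its paralogs.

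The medians of the antigen presentation list per culture were -0.16, -0.16, -0.17 and -0.19 with shKdm5c#1, against 0.07, 0.08, 0.03 and 0.02 with shKdm5c#2, and -0.22, -0.16, -0.19 and -0.26 with control-sh. Thus shKdm5c#2 stood above IB10 and the other lines below it. The exceptions among the effectors were Oas1a and Oas1b, paralogs of the oligoadenylate synthetase family, called higher at 0.34 and 0.24 and named after their values were seen. Outside chromosomes 8, 11, 15 and 19, described further on, 14 of 31 effectors and 13 of 21 antigen presentation genes were called lower. A fit without the genes of those chromosomes called 911 of 14655 genes lower and 1510 higher.

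**Figure D2:**
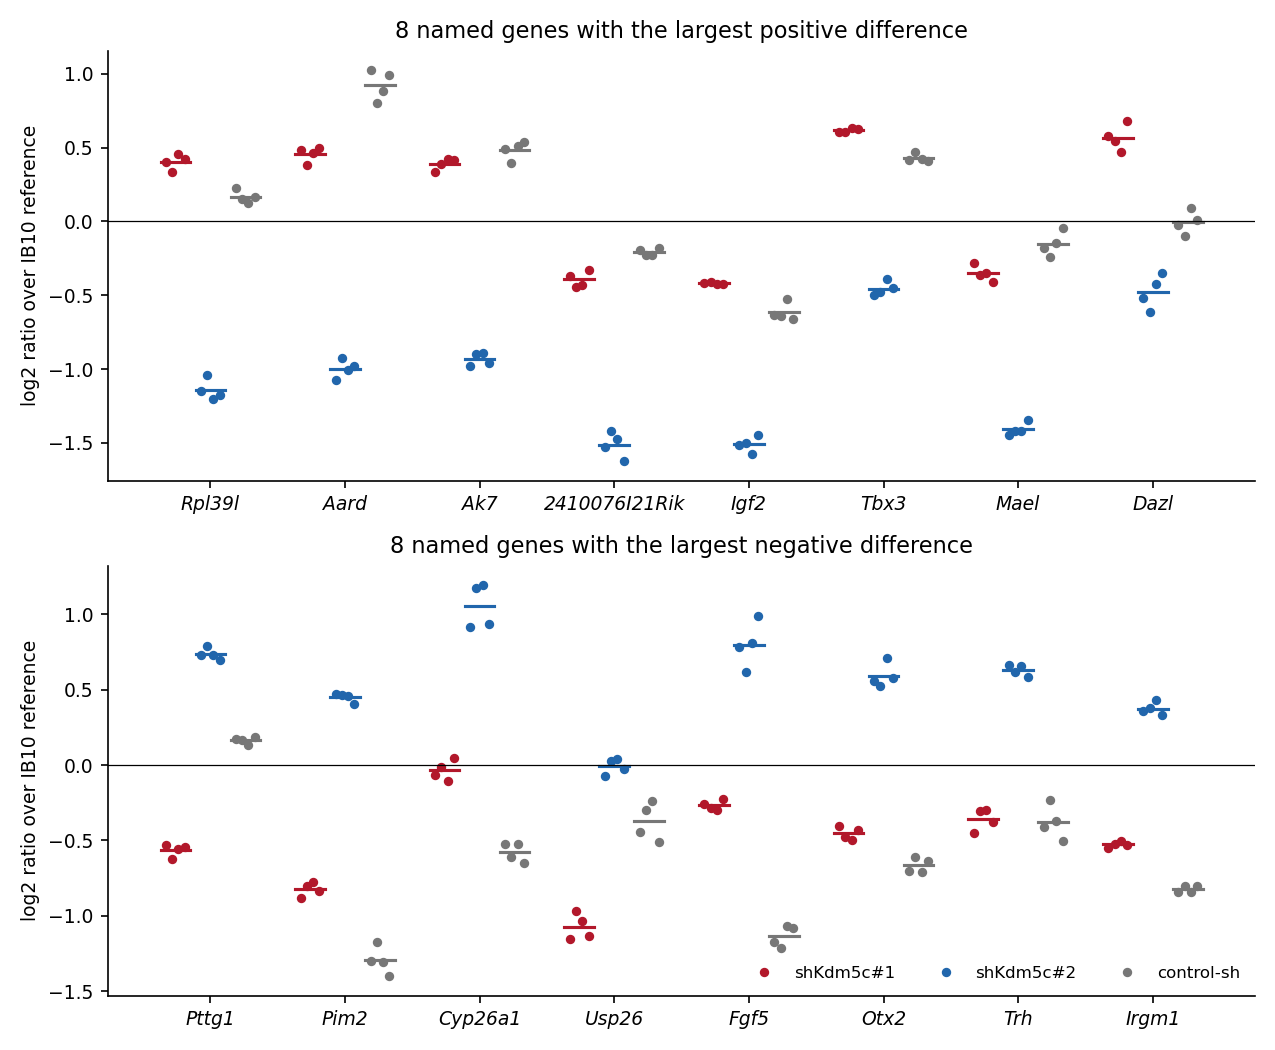
Log2 ratio over IB10 (y axis) of the 8 named genes with the largest positive difference (upper panel) and the 8 with the largest negative difference (lower panel), in shKdm5c#1 (red), shKdm5c#2 (blue) and control-sh (grey). Points are the 4 cultures of a line and bars their mean. The red and blue cultures do not overlap in any of the 16 genes, by the rule that chose them.

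Naive pluripotency factors were higher, and markers of the primed epiblast lower, with shKdm5c#1. Of 17 naive factors, 10 were called higher and 2 lower, with a median of 0.22. Of 17 primed markers, 9 were called lower and 3 higher, with a median of -0.14. Of 12 core pluripotency factors, 1 was called higher and 2 lower. With median centring, 2 naive factors were called higher and 6 primed markers lower.

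Tbx3, a T-box factor of the naive network downstream of LIF, stood at 0.61, 0.61, 0.64 and 0.63 in the shKdm5c#1 cultures, against -0.50, -0.48, -0.39 and -0.45 in the shKdm5c#2 cultures, and at 0.41, 0.47, 0.43 and 0.41 in control-sh cultures. The difference was 1.07 (SE 0.0329, adjusted p = 3.70e-12), with shKdm5c#2 below both other lines. Its dimmer probe gave 0.05 with adjusted p = 0.559. Nr0b1, a nuclear receptor that binds Oct4, was higher by 0.63 (adjusted p = 3.68e-08). Tet2, which oxidises methylated cytosine, was higher by 0.52 (adjusted p = 1.89e-05). Dppa3, also known as Stella and a protector of DNA methylation in the zygote, went the other way, at -0.90, -0.91, -0.93 and -0.90 in the shKdm5c#1 cultures, against -0.12, -0.10, -0.08 and -0.26 in the shKdm5c#2 cultures, a difference of -0.77 (adjusted p = 2.06e-09).

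Fgf5, a growth factor of the epiblast, stood at -0.26, -0.29, -0.30 and -0.22 in the shKdm5c#1 cultures, against 0.78, 0.62, 0.81 and 0.99 in the shKdm5c#2 cultures, and at -1.17, -1.22, -1.06 and -1.08 in control-sh cultures. The lines did not overlap, with shKdm5c#2 highest and control-sh lowest, and the hairpin lines differed by -1.06 (SE 0.0601, adjusted p = 3.26e-09). Otx2, the homeobox factor of the epiblast and the anterior brain, stood at -0.41, -0.48, -0.50 and -0.43 in the shKdm5c#1 cultures, against 0.56, 0.52, 0.71 and 0.58 in the shKdm5c#2 cultures. Its difference was -1.05 (SE 0.043, adjusted p = 8.69e-11). Dnmt3b, a de novo DNA methyltransferase, differed by -0.72 (adjusted p = 4.17e-10), and Fst, an inhibitor of activin, by -0.59 (adjusted p = 6.31e-08).

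In the core list, Pou5f1, Sox2 and Nanog differed by 0.03, -0.02 and 0.16 and were not called. All 8 embryonic stem cell markers checked (these 3 with Zfp42, Sall4, Utf1, Dppa5a and Tdgf1) stood above background on all 12 arrays. Dppa5a, an RNA-binding protein of pluripotent cells, was the member called higher, by 0.78 (adjusted p = 9.48e-06). Tdgf1, the Nodal co-receptor Cripto, was lower, at -0.32 (adjusted p = 1.17e-05). Lin28, a repressor of let-7 maturation, was lower, at -0.16 (adjusted p = 0.0109).

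Genes of the primitive streak, where mesoderm forms, were lower with shKdm5c#1 more often than higher. Of 31 measured, 13 were called lower and 4 higher, with a median of -0.04, and 9 were called lower with median centring. T (brachyury), the T-box factor of the streak, stood at -0.13, -0.11, 0.02 and 0.06 in the shKdm5c#1 cultures, against 0.62, 0.50, 0.63 and 0.86 in the shKdm5c#2 cultures, and at -1.44, -1.49, -1.30 and -1.42 in control-sh cultures. It differed by -0.69 (SE 0.0663, adjusted p = 1.32e-06), with shKdm5c#2 highest and control-sh lowest. Sp5, a Wnt target, differed by -0.59 (adjusted p = 3.53e-08), Gsc, an organizer homeobox gene, by -0.54 (adjusted p = 1.73e-06), and Wnt3, the ligand, by -0.49 (adjusted p = 2.15e-07). Of 18 Wnt feedback targets, 6 were called lower, Lef1 among them at -0.45 (adjusted p = 6.67e-08), and 1 higher, Sfrp1, a secreted Wnt inhibitor, at 0.53 (adjusted p = 3.04e-08). The 3 other Lef1 probes gave -0.04 to 0.05, and none was called. T and Sp5, among others, are in both the streak and the Wnt list. Of the 6 Wnt targets called lower, 3 lie on chromosome 11. Outside chromosomes 8, 11, 15 and 19, 3 of 10 Wnt targets were called lower.

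Cyp26a1, the enzyme that breaks down retinoic acid, was among the largest differences, at -0.07, -0.01, -0.11 and 0.05 in the shKdm5c#1 cultures, against 0.91, 1.17, 1.19 and 0.93 in the shKdm5c#2 cultures. It differed by -1.09 (SE 0.0612, adjusted p = 3.24e-09), and its second probe by -0.70. The list of retinoic acid metabolism and response was mixed: of 20 measured, 7 were called higher, or as few as 4 when 1 culture was left out, and 3, Cyp26a1 included, lower. Stra8, the retinoic acid target that starts meiosis, was higher by 0.70 (adjusted p = 3.32e-09). It stood at -0.02, -0.02, 0.03 and -0.0033 in the shKdm5c#1 cultures, against -0.82, -0.70, -0.63 and -0.67 in the shKdm5c#2 cultures, with control-sh above both at 0.85, 0.85, 0.82 and 0.77. It was above background in 3 of the 4 shKdm5c#1 cultures.

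Genes of the trophectoderm, the first epithelium of the embryo, were more often higher than lower with shKdm5c#1. So were the members of a list of keratins and epithelial junction genes that also holds annexins, S100 proteins and galectins. Of 26 trophectoderm genes, 16 were called higher and 1 lower, with a median of 0.18. Of 30 genes of the keratin list, 15 were called higher and 6 lower. The genes named next were picked after their values were seen. The trophectoderm factor Eomes (-0.46) was called lower, and junction and adhesion genes of the keratin list went both ways. Cldn4 (0.46), Dsg2 (0.29), Dsp (0.18) and Perp (0.62) were called higher. Epcam (-0.44), Cldn7 (-0.33), Cldn6 (-0.26), Cdh1 (-0.25) and Pkp2 (-0.11) were called lower. Of the annexins, S100 proteins and galectins, all but S100a10 (0.09, not called) were called higher. With median centring the counts called higher were 8 for the trophectoderm list and 10 for the keratin list. Krt7, Krt8, Krt18, Krt19 and Lgals3 are in both lists. Igf2, the imprinted growth factor, stood at -0.42, -0.41, -0.42 and -0.42 in the shKdm5c#1 cultures, against -1.52, -1.50, -1.57 and -1.44 in the shKdm5c#2 cultures, a difference of 1.09 (SE 0.0373, adjusted p = 1.15e-11), with IB10 above both lines.

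Krt18, a keratin of simple epithelia, stood at 0.27, 0.25, 0.24 and 0.14 in the shKdm5c#1 cultures, against -0.37, -0.43, -0.50 and -0.53 in the shKdm5c#2 cultures, and at -1.37, -1.25, -1.36 and -1.28 in control-sh cultures. It differed by 0.69 (adjusted p = 1.23e-08), and its partner Krt8 by 0.51 (adjusted p = 8.05e-07). Krt7 differed by 0.66 (adjusted p = 8.36e-10), with control-sh and shKdm5c#2 overlapping, and its dimmer probe gave 0.11 with adjusted p = 0.175. Of the other keratins measured, Krt42 was called higher at 0.15, while Krt19, Krt20 and Krt23, at 0.0068, 0.08 and -0.01, were not called. Krt18, Krt8 and Krt7 lie on chromosome 15. Outside chromosomes 8, 11, 15 and 19, 12 of 18 trophectoderm genes were called higher and 1 lower. Of 17 genes of the keratin list there, 9 were called higher and 4 lower. Anxa1, a calcium-dependent membrane-binding protein, was higher by 1.02 (SE 0.0385, adjusted p = 3.37e-11).

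Markers of other cell types were also checked. Of 9 trophectoderm markers matched by symbol in the set used to check cell identity, 6 were called higher and 1 lower. Their mean linear ratio over IB10 was 1.03 to 1.07 with shKdm5c#1, against 0.893 to 0.943 with shKdm5c#2 and 0.757 to 0.787 with control-sh. Tfap2c, also in that set, was on the array as Tcfap2c (0.33, called higher) and was left out of these counts and ratios. Of 7 mesoderm markers, 3 were called lower and 1 higher, with mean ratios of 0.917 to 0.941 with shKdm5c#1, against 1.07 to 1.13 with shKdm5c#2 and 0.826 to 0.849 with control-sh. Of 10 fibroblast markers, 2 were called higher and 1 lower, at 0.90 to 0.922 with shKdm5c#1, against 0.875 to 0.906 with shKdm5c#2 and 0.983 to 1.01 with control-sh. Of 11 extraembryonic endoderm markers 3 were called higher and 0 lower, and of 5 neuroectoderm markers 0 were called higher and 2 lower. All of these trophectoderm markers are also in the trophectoderm list above, and all of these mesoderm markers in the streak list. Their counts repeat values of those lists and are no separate check. Whether a change in cell types lies behind the list counts was not tested. In bulk RNA a change in the share of cells of a type and a change of RNA per cell cannot be told apart.

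Germ cell genes were higher with shKdm5c#1 more often than lower. Of 46 measured, 19 were called higher and 6 lower, with a median of 0.08, and 13 were called higher with median centring. The 6 called lower, named after their values were seen, were Syce2 (-0.31), Tdrd12 (-0.29), Sycp3 (-0.28), Dnd1 (-0.27), Ddx25 (-0.26) and Tdrd5 (-0.20). Rpl39l, a ribosomal protein paralog most abundant in the testis, had the largest difference of all named genes. It stood at 0.40, 0.34, 0.45 and 0.42 in the shKdm5c#1 cultures, against -1.15, -1.04, -1.20 and -1.17 in the shKdm5c#2 cultures, and at 0.23, 0.15, 0.13 and 0.16 in control-sh cultures. The difference was 1.55 (SE 0.0406, adjusted p = 7.07e-13), a 2.92-fold higher level, with shKdm5c#2 alone below IB10. Its dimmer probe gave 0.66.

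Dazl, an RNA-binding protein of germ cells, stood at 0.58, 0.54, 0.47 and 0.68 in the shKdm5c#1 cultures, against -0.52, -0.61, -0.43 and -0.35 in the shKdm5c#2 cultures, and at -0.02, -0.10, 0.09 and 0.01 in control-sh cultures, between the hairpin lines. It differed by 1.04 (SE 0.0577, adjusted p = 2.55e-09), and its dimmer probe by 0.35. Mael, a piRNA pathway protein whose promoter E-box is printed above, stood at -0.28, -0.36, -0.35 and -0.41 in the shKdm5c#1 cultures, against -1.44, -1.42, -1.42 and -1.35 in the shKdm5c#2 cultures. It differed by 1.06 (adjusted p = 7.26e-11), while a dimmer Mael probe gave -0.08 with adjusted p = 0.329. Smc1b, the meiotic cohesin subunit on chromosome 15, differed by 0.72 (adjusted p = 8.53e-09), with both hairpin lines above control-sh.

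Atf4 targets, which respond to shortage of amino acids, were more often higher than lower with shKdm5c#1. Of 33 measured, 14 were called higher, 1 lower and 18 not called, with a median of 0.08. Cth, which makes cysteine, stood at 0.69, 0.61, 0.56 and 0.62 in the shKdm5c#1 cultures, against -0.43, -0.51, -0.42 and -0.16 in the shKdm5c#2 cultures, and at -0.43, -0.53, -0.41 and -0.47 in control-sh cultures. The difference was 1.00 (SE 0.0597, adjusted p = 6.12e-09), with shKdm5c#2 overlapping control-sh. Nupr1, a stress-induced nuclear protein with the CARE match printed above, stood at 0.97, 0.87, 0.84 and 0.87 in the shKdm5c#1 cultures, against 0.08, 0.15, 0.04 and 0.15 in the shKdm5c#2 cultures, a difference of 0.78 (adjusted p = 1.32e-09). Trib3, a pseudokinase induced by Atf4, differed by 0.61 (adjusted p = 8.53e-09), and by 0.05 on its dimmer probe (adjusted p = 0.439). Slc7a1, a transporter of cationic amino acids, differed by 0.53 (adjusted p = 2.36e-08), and by 0.02 on its dimmer probe (adjusted p = 0.874). With median centring 5 of the list were called higher. Lists of related genes were mixed. Of 18 genes of serine, one-carbon and proline synthesis, Cth included, 3 were called higher and 5 lower. Of 35 aminoacyl-tRNA synthetases, 3 were called higher and 7 lower.

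Of 34 genes in a list of p53 targets, 16 were called higher and 1 lower, with a median of 0.13, and 6 were called higher with median centring. The list includes Cdkn2a, a regulator upstream of p53 and no target, called higher at 0.35 and named after its value was seen. Perp is also in the keratin list. Plk3, a kinase of the stress response, differed by 0.63 (adjusted p = 1.52e-07). Perp, a membrane protein of desmosomes, differed by 0.62 (adjusted p = 1.72e-09), at 0.09, 0.04, 0.07 and 0.03 in the shKdm5c#1 cultures, against -0.57, -0.52, -0.58 and -0.61 in the shKdm5c#2 cultures. Gadd45a, induced by DNA damage, differed by 0.60 (adjusted p = 9.02e-09), and Mdm2, which degrades p53, by 0.55 (adjusted p = 5.90e-07). For Perp, Gadd45a and Mdm2 the control-sh cultures lay nearer to shKdm5c#1. Cdkn1a, the classical p53 target, differed by 0.0018 and was not called, a gene named after its value was seen.

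Of 40 genes of G2 and mitosis, 13 were called lower and 1 higher, Racgap1, with a median of -0.05, and 0 were called with median centring. Top2a, Aurkb and Birc5, at -0.34, -0.29 and -0.29, lie on chromosome 11, and 8 of the 13 lie outside chromosomes 8, 11, 15 and 19. The second Aurkb probe gave 0.05 with adjusted p = 0.692, and the other Top2a probes gave -0.45 and -0.10, the second with adjusted p = 0.188. Pttg1, the securin that keeps separase inactive until anaphase, is not in this list. It had the largest negative difference of the named genes and also lies on chromosome 11. It stood at -0.53, -0.62, -0.55 and -0.54 in the shKdm5c#1 cultures, against 0.73, 0.79, 0.73 and 0.70 in the shKdm5c#2 cultures, and at 0.17, 0.16, 0.13 and 0.19 in control-sh cultures. The difference was -1.30 (SE 0.0337, adjusted p = 7.07e-13), with control-sh between the hairpin lines. Its level was 2.46-fold higher with shKdm5c#2.

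Other named genes at the ends were in none of these lists. Pim2, a serine-threonine kinase coded on the X chromosome, stood at -0.88, -0.80, -0.78 and -0.83 in the shKdm5c#1 cultures, against 0.47, 0.47, 0.45 and 0.41 in the shKdm5c#2 cultures, a difference of -1.27 (adjusted p = 1.15e-11). Usp26, an X-linked deubiquitinase of the testis, differed by -1.07 (adjusted p = 1.92e-09), opposite to most called genes of the germ cell list. Trh, the precursor of thyrotropin-releasing hormone, differed by -0.99 (adjusted p = 1.44e-09). Aard, a gene on chromosome 15, stood at 0.48, 0.38, 0.47 and 0.50 in the shKdm5c#1 cultures, against -1.07, -0.92, -1.01 and -0.98 in the shKdm5c#2 cultures, with control-sh above both at 1.02, 0.80, 0.88 and 1.00. Its difference was 1.45 (adjusted p = 1.15e-11). Ak7, an adenylate kinase of cilia, differed by 1.32 (adjusted p = 2.37e-12). Its other probes gave 1.16 and 0.13, the dimmer with adjusted p = 0.0545.

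The remaining genes of the 15 largest on the positive side were 2410076I21Rik, Mylpf, Htra1, AU018091, Klhl13 and Hspb1, at 1.12, 1.00, 0.98, 0.96, 0.95 and 0.91. The 3 other Klhl13 probes gave -0.0075 to 0.07, and none was called. Among metabolic lists, 10 of 34 glycolysis and hypoxia genes were called lower and 3 higher, led by the lactate transporter Slc16a3 at -0.67 (adjusted p = 2.86e-08). Of 23 endoplasmic reticulum chaperones, 7 were called lower and 1 higher, led by P4hb, protein disulfide isomerase, at -0.40 (adjusted p = 7.27e-06). Both genes lie on chromosome 11. The counts called lower with median centring were 2 for glycolysis and hypoxia and 0 for the chaperones.

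**Figure D3:**
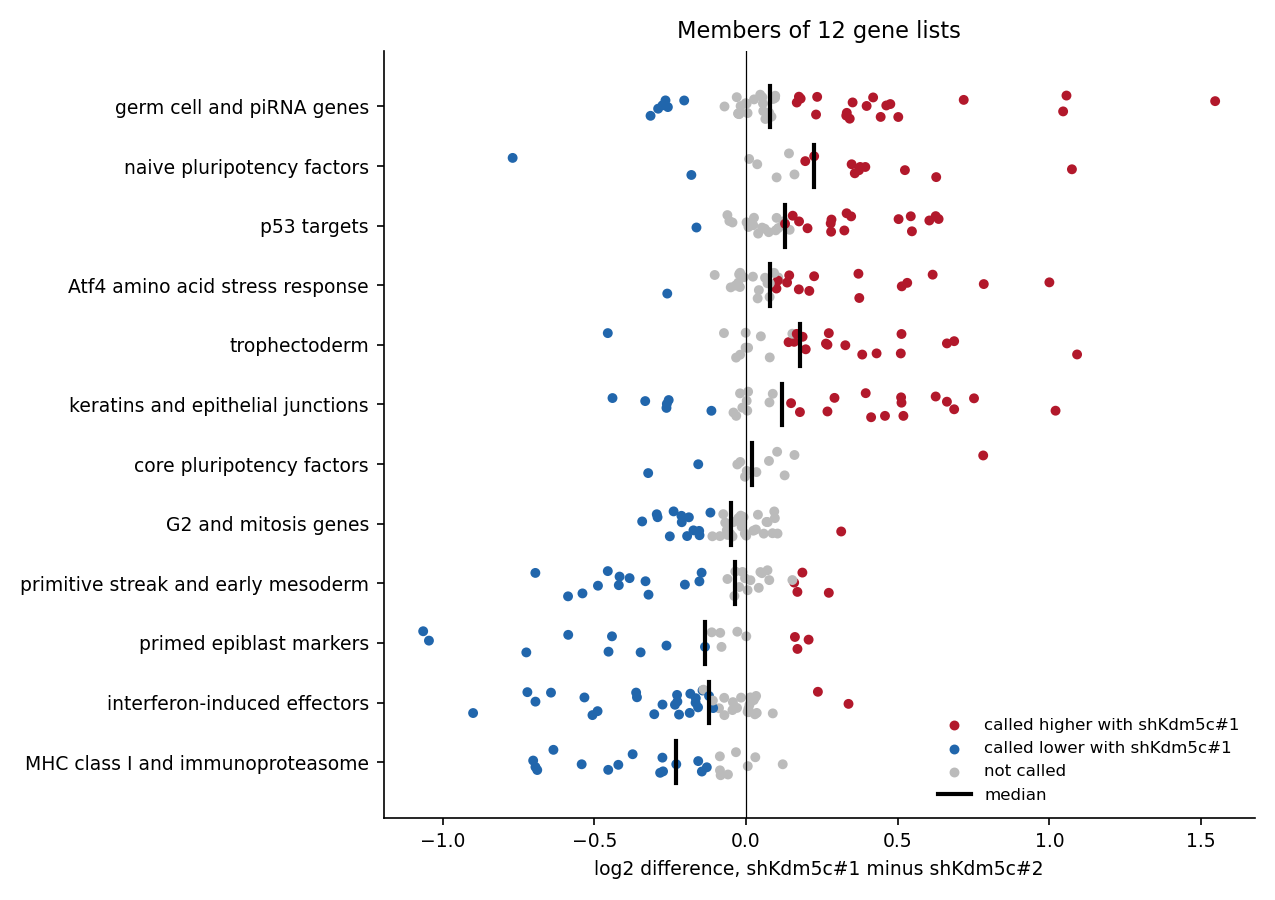
Each point is a gene of 1 of 12 lists, by its log2 difference, shKdm5c#1 minus shKdm5c#2 (x axis). Red points were called higher, blue points lower and grey points not called, and black bars are list medians, from 0.22 for naive pluripotency factors to -0.23 for MHC class I and the immunoproteasome.

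The 112 genes called at 1.5-fold or more were set beside the control-sh mean. Of the 86 higher with shKdm5c#1, control-sh lay above both lines in 29, below both in 12 and between them in 45. Of the 26 lower with shKdm5c#1, it lay above both in 0, below both in 19 and between them in 7. Relative to IB10, the reference cells lay between the hairpin lines for 53 of the 86 and 22 of the 26.

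The differences were not spread evenly over the chromosomes, as placed by RefSeq on GRCm38.p6. On chromosome 11, 23.8% of 1451 genes were called lower and 4.48% higher with shKdm5c#1. On chromosome 19, 18.3% of 638 genes were lower and 4.70% higher, and on chromosome 8, 15.1% of 896 were lower and 7.92% higher. On chromosome 15 the pattern was opposite, with 19.9% of 682 genes higher and 2.49% lower. The chromosome medians were small, at -0.03 for chromosome 11, -0.03 for 19, -0.02 for 8 and 0.03 for 15.

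**Figure D4:**
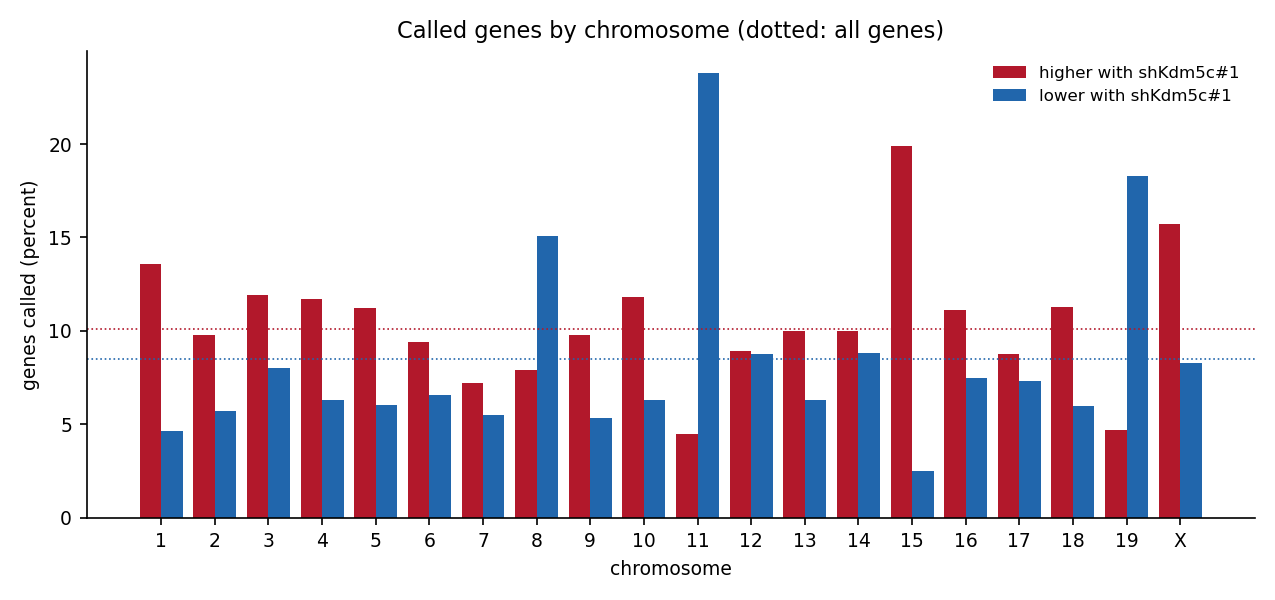
Percent of the genes of each chromosome (x axis) called higher (red, left bar) or lower (blue, right bar) with shKdm5c#1 than with shKdm5c#2. Dotted lines are the shares over all genes, 10.1% higher and 8.51% lower. Chromosomes 11 (23.8%), 19 (18.3%) and 8 (15.1%) lie farthest above the line for lower, and chromosome 15 (19.9%) farthest above that for higher. Some others also exceed a line, by less, among them X (15.7% higher) and 14 (8.80% lower).

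Set against IB10, the chromosome medians over genes above background on all 12 arrays, less the median of all such genes, show which line departed. For chromosome 11 they were -0.071 to -0.053 with shKdm5c#1, against -0.012 to -0.0026 with shKdm5c#2 and -0.013 to -0.00045 with control-sh. For chromosome 15 they were 0.034 to 0.037 with shKdm5c#1, against -0.0038 to 0.0066 with shKdm5c#2 and -0.010 to -0.0047 with control-sh. For chromosome 19 they were 0.0043 to 0.013 with shKdm5c#1, against 0.037 to 0.055 with shKdm5c#2 and -0.0095 to 0.000087 with control-sh. For chromosome 8 all 3 lines lay above IB10, at 0.042 to 0.051 with shKdm5c#1, against 0.057 to 0.084 with shKdm5c#2 and 0.060 to 0.082 with control-sh. Thus on chromosomes 8, 11 and 15 shKdm5c#1 did not overlap the other lines, and on chromosome 19 no pair of lines overlapped. When the genes of chromosome 11 were cut by position into 4 blocks, the median difference of each block was between -0.038 and -0.029. The blocks of the others varied more in proportion, from -0.033 to -0.0070 on chromosome 8, from -0.046 to -0.016 on 19 and from 0.018 to 0.037 on 15. Shifts were not confined to these chromosomes. On chromosome 1, with 13.6% of genes called higher and 4.66% lower, the hairpin lines also did not overlap. Its medians were 0.0035 to 0.013 with shKdm5c#1, against -0.015 to -0.0024 with shKdm5c#2. On X the hairpin lines overlapped, and both lay above every control-sh culture. The part of all these chromosome shifts in the differences of single genes was not tested.

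**Figure D5:**
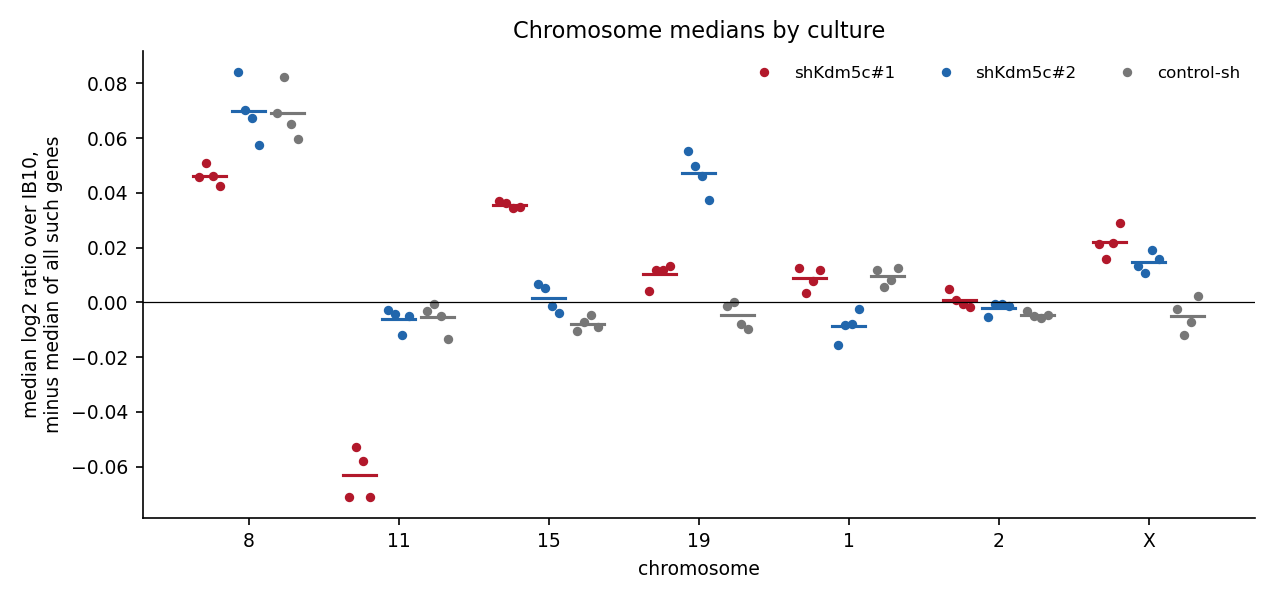
Median log2 ratio over IB10 of the genes of a chromosome that were above background on all 12 arrays, minus the median of all such genes (y axis), for 7 chromosomes (x axis) in shKdm5c#1 (red), shKdm5c#2 (blue) and control-sh (grey). Points are cultures and bars line means. Chromosome 11 (-0.071 to -0.053) and chromosome 15 (0.034 to 0.037) lie apart from the other lines in shKdm5c#1, as does chromosome 8 (0.042 to 0.051), while on chromosome 19 shKdm5c#2 (0.037 to 0.055) lies above shKdm5c#1 and control-sh.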

How the data were processed

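Transcripts were measured on 12 spotted oligonucleotide arrays in Cy3 and Cy5. Per the file headers, the raw files give an unnormalized intensity for every spot and for the background beside it in each dye. A deposited table holds log2 of the authors' normalized Cy5 over Cy3 signal, checked against the authors' derived intensity files (largest difference 5e-10). It served as an alternative. The method of that normalization is not given in the sources used here.

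Here, background was corrected with normexp (offset 50), ratios were normalized by loess within each array with 4046 control spots at weight 0, and each ratio was turned to culture over IB10. Of 41174 gene probes, 34186 had a gene symbol in the platform annotation, 6988 had none and 0 had several. Of the 18322 genes, 8938 had further probes, and the brightest was used. Of the symbols, 16254 were in the RefSeq table, 2020 were there as synonyms and 48 were in neither. Limma 3.58.1 in R 4.3.3 fitted line and dye on all 12 arrays, with Benjamini-Hochberg adjustment. A probe was above background where its signal median exceeded the background median by 2 background SDs. The number of arrays limits the precision, with a median SE of 0.04.

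The comparison and the 37 gene lists were chosen with earlier results of these data known. Named genes were Kdm5c and the other histone demethylases of its list. Others were the 15 highest and 15 lowest differences among called genes without overlap of cultures. These had to stand above background in every culture of a hairpin line. Of each list, up to 4 called members were named, or up to 2 members where fewer were called. A few others are named as chosen after their values were seen. Alternatives covered background correction, normalization, dye, probes, weights, samples and the culture letter as a block. One that left out genes of chromosomes 8, 11, 15 and 19 was chosen after seeing the data.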

Additional observations from a re-analysis of the deposited data

Results flagged for a closer look

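In each hairpin line the 4 cultures of each named gene were searched for 1 culture far from the other 3, by Dixon's ratio of its gap to the range. Of 290 combinations of gene and line, 14 were so marked, and chance marks about 1 in 20. Culture D of shKdm5c#2 was the culture with the most, 3. In shKdm5c#1, culture B stood apart for Gbp3 (-0.539) and Hspb1 (0.67), culture C for Dhcr7 (-0.138), culture D for Mat2a (-0.016) and Sox7 (-0.11), and culture A for Rars (-0.278). In shKdm5c#2, culture D stood apart for Id2 (-0.782), Mylpf (-0.202) and Psmb8 (0.437), culture A for Ahcy (0.142) and Rpl13a (-0.166), culture B for Jun (-0.334), and culture C for Anxa1 (-1.4) and Srgn (-0.675). All values are log2 ratios over IB10.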

How the results depend on the processing

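Against 3404 genes called (1844 higher and 1560 lower with shKdm5c#1), median centring gave 474 (339 higher, 135 lower), no dye term 2007 (1161 higher, 846 lower), cultures in Cy5 alone 741 (463 higher, 278 lower) and cultures in Cy3 alone 2256 (879 lower). The cause was not tested, except that the single-dye fits hold fewer samples. Leaving out genes of chromosomes 8, 11, 15 and 19 left 2421 calls, 911 of them lower, of 14655 genes. Leaving out 1 culture at a time gave 2759 to 4012 calls, 1518 to 2245 higher, 1231 to 1767 lower, 109 to 121 at 1.5-fold or more, and a Kdm5c difference of 0.00066 to 0.10. Without culture D of shKdm5c#2 the count was 4012. The Kdm5c difference was -0.0027 (adjusted p = 0.973) as the mean of its probes, and was called under no setting. Other settings kept the count of calls between 2964 and 3791. Of the 144 named genes other than Kdm5c, 61 lost their call under median centring, 48 with Cy5 alone and 15 with no dye term, and none changed sign while called. Of 107 other probes of named genes, 85 had the same sign as the brightest and 0 had the other sign and a call, but only 46 were called with the same sign. Of 66 called named genes with another probe, 25 had no other probe called, and the mean over probes was smaller by over 1.5 times in 33. The line by dye interaction was called in 0 genes by limma (455 at an unadjusted p under 0.05). With culture letters as a replicate block, 3753 genes were called, but deviations of same-letter cultures correlated at -0.275 to 0.069, so the letters do not pair the cultures. For the naive, primed, streak, trophectoderm, keratin, germ cell, antigen presentation, interferon, Atf4, p53 and mitosis lists, the direction with more calls did not turn under any setting, although the mitosis list had 0 calls with median centring. Dim probes limit the precision of small differences.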
